A study of Mus musculus with 14 samples.

Results

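Mitochondrial ribosomal protein (Mrp) genes are nuclear genes for the proteins of the ribosome that works inside mitochondria. They were taken here as the protein-coding genes whose mouse symbol starts with Mrpl or Mrps followed by a number, that is 78 genes, 49 of the large subunit (Mrpl) and 29 of the small subunit (Mrps). All 78 were listed in both count tables, which hold 55335 gene identifiers for the ureteric bud (UB) and 52636 for the metanephric mesenchyme (MM). The 5 processed pseudogenes with such symbols (Mrps36-ps1, Mrps36-ps2, Mrps36-ps3, Mrpl23-ps1 and Mrpl48-ps) were left out.

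The study asked which transcripts depend on MAPK/ERK signaling in each kidney progenitor tissue, by deleting the kinases Mek1 and Mek2 (genes Map2k1 and Map2k2) and sequencing RNA of cells sorted for GFP, with both kidneys of an embryo in a library. The UB samples, at E12.5, were 4 controls (HoxB7Cre-GFP;Mek1fl/+ with Mek2+/- in libraries 1, 3 and 4 and Mek2+/+ in library 2) and 4 double knockouts (dko; HoxB7Cre-GFP;Mek1fl/fl;Mek2-/-). The MM samples, at E13.5, were 3 controls (Six2-TGC;Mek1fl/+;Mek2+/+ by the labels) and 3 dko (Six2-TGC;Mek1fl/fl;Mek2-/-). The methods text also allows a Mek2+/- genotype among MM controls, which the labels do not give for any of them. It also lists Mek1+/+;Mek2+/- among UB controls, a genotype that is not among those given above. HoxB7 drives Cre in the UB epithelium and Six2 in nephron progenitors, all animals were of a mixed C57BL6/Rcc and 129/SvEv background, the controls of both tissues also carried a Cre and, by the genotypes given above, a floxed Mek1 allele, and the Mek2 null allele was present in all cells of the embryo. Tissue, stage and Cre line cannot be told apart between UB and MM, nor can loss of Mek2 in the sorted cells and in the rest of the embryo.

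Mitoribosomes translate the few mRNAs that the mitochondrial genome encodes, all of them for subunits of the respiratory chain and ATP synthase. Their ribosomal RNAs come from the mitochondrial genome, but every protein of both subunits is made in the cytosol from nuclear mRNAs and imported, so the subunits are assembled from the products of both genomes. The small subunit binds the mRNA and decodes it, and the large subunit forms the peptide bond and faces the inner membrane into which most products are inserted.

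Total counts were 4857053 to 7493144 in the UB libraries, 5880919 to 6442484 in the MM controls, and 3438297, 1443582 and 3066481 in MM dko 1 to 3. Map2k2 stood at 51.2 to 70.1 CPM (counts scaled to a common library total) in the MM controls and 2.04 to 4.85 in the MM dko libraries. In the UB it stood at 37.2 to 73.9 CPM in the controls and at 51.1, 6.18, 29.6 and 10.7 CPM in the libraries labelled UB dko 1 to 4, so that library 1 lay within the control range and library 3 close to it. Map2k1, of which the floxed allele removes only a part, gave 16.7 to 42.9 CPM in all 14 libraries and checks no label. Genes of low GC content exceeded those of high GC content, relative to the controls, by 2.27 and 1.62 log2 units in the libraries labelled UB dko 2 and 4 and by 2.20 to 3.23 in the MM dko libraries, against -0.28 to 0.46 in all others. The library labelled UB dko 3 had 32.5% of its counts on the rRNA-like gene Gm42418, against 3.26 to 4.65% in the other UB libraries. UB results are therefore given over all libraries and again for the libraries labelled UB dko 2 and 4, and for 1 and 3, apart. Summed UB epithelium markers, 10 genes, were at 1611 to 2724 CPM in the UB and 95.5 to 218 CPM in the MM, and summed nephron progenitor markers, 8 genes, at 1061 to 1784 CPM in the MM and 6.59 to 44.9 CPM in the UB.

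Promoters of 69 of the 78 genes were found in the RefSeq table (GRCm38.p6, 250 bases before to 50 bases after the annotated start), in 75 windows. Letters bound by factors that are known regulators of nuclear genes for mitochondrial proteins were counted on both strands: GCGCANGCG for NRF1, CCGGAAG for ETS factors such as GABP, and ATGGCGG for YY1. NRF1 letters were in 21.3% of the windows of Mrp genes against 8.9% of 20150 windows of protein-coding genes and 6.25% of all 32851 windows. ETS letters were in 34.7% against 11.9% and 8.86%, and YY1 letters in 17.3% against 5.38% and 4.05%. The ETS and YY1 letters do not overlap in the windows shown, while an NRF1 match on one strand can overlap a match on the other. Printed below are the promoters of Mrpl12 and Mrps21, called lower in the MM dko, and of Mrpl27 and Mrpl32, called higher there, with the matched letters in capitals, 5′ to 3′ on the strand of the gene.
Mrpl12 (chr11:120484387-120484686, + strand, NRF1 letters once): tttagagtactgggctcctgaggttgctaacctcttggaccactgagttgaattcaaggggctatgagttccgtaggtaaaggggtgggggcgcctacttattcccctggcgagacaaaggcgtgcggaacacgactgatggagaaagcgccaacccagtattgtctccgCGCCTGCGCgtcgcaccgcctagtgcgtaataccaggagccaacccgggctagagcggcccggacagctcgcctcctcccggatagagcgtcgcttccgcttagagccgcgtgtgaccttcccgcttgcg
Mrps21 (chr3:95871465-95871764, - strand, NRF1 letters once, then ETS letters): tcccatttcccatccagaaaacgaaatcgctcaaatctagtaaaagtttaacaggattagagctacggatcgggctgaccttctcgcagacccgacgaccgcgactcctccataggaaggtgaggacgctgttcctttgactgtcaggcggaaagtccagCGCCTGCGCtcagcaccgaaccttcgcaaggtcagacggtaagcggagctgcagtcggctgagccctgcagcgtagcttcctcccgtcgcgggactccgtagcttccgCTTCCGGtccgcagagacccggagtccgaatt
Mrpl27 (chr11:94653541-94653840, + strand, ETS letters, then YY1 letters): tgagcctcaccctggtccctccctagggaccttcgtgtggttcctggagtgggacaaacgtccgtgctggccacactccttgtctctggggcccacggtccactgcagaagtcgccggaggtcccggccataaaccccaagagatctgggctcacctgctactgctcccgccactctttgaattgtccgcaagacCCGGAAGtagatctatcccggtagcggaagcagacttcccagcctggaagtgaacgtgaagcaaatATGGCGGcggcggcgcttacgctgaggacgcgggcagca
Mrpl32 (chr13:14612988-14613287, - strand, NRF1 letters at 3 starts, of which the first 2 overlap): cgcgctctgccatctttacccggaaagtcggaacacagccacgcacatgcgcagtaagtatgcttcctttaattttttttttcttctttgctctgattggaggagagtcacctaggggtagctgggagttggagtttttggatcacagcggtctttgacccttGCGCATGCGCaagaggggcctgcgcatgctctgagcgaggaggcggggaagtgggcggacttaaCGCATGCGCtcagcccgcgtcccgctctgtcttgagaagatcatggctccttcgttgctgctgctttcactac
Such letters thus stood in the promoter windows of members that differed in both directions. At least 1 of the 3 kinds was in the promoters of 19 of 33 genes called lower, 2 of 3 called higher and 22 of 33 not called in the MM.

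In the controls, the levels of the members spread over more than an order of magnitude. Levels between genes are given as CPM per kilobase of exon, as mean and SD over control libraries. In the UB controls the large-subunit members had a median of 9.46 and a range from 1.45 ± 0.424 for Mrpl23 and 1.47 ± 0.398 for Mrpl48 to 25.4 ± 2.33 for Mrpl12 and 26.0 ± 8.94 for Mrpl34. In the MM controls the median was 10.2, and the ends were 1.09 ± 0.529 for Mrpl33 and 2.02 ± 0.319 for Mrpl48, and 26.4 ± 4.74 for Mrpl18 and 33.2 ± 4.10 for Mrpl12. The SDs of Mrpl12 and Mrpl34 in the UB and of Mrpl12 and Mrpl18 in the MM overlap, so the order at the top is not settled. Small-subunit members had medians of 6.67 in the UB and 6.31 in the MM controls. Mrps21 was highest in both, at 22.9 ± 6.65 and 23.99 ± 10.3, followed by Mrps15 at 18.6 ± 5.91 and 15.8 ± 2.46. The lowest were Mrps16 at 2.16 ± 0.539 and Mrps36 at 3.08 ± 1.34 in the UB, and Mrps10 at 2.87 ± 0.813 and Mrps16 at 3.11 ± 1.04 in the MM. Across genes, control levels of the tissues ranked alike, with a Spearman rho of 0.93 over 47 large-subunit and 0.85 over 29 small-subunit genes (a description, since gene length and sequence are shared). Mrpl48, Mrpl23 and Mrps36 have processed pseudogene copies and Mrps36 is now regarded as part of the 2-oxoglutarate dehydrogenase complex, so their reads or their place in the ribosome are uncertain. Mrpl53 had 0 counts in every library, and 88% of its exonic bases are shared on the same strand with Gm42688, so no level can be given for it.

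In the MM dko, Mrp genes of both subunits were lower than in the controls far more often than higher. Of 47 large-subunit genes tested, 26 were lower, 3 were higher and 18 were not called at an adjusted p under 0.05. Of 29 small-subunit genes, 12 were lower, none was higher and 17 were not called. These shares, 55.3% and 41.4% lower, stand beside 27.9% lower and 25.0% higher among all 12431 genes tested. The median log2 fold change was -0.89 for the large and -0.53 for the small subunit, against -0.05 for all genes. The small-subunit median was -1.0 without MM dko library 2, -1.09 with limma voom and sample quality weights, and -0.92 with scaling by library size only, which moved the median of all genes to -0.44. A change of at least 2-fold was seen in 23 of the 26 and in all 12 of the small-subunit genes called lower, and in 1 of the 3 called higher. Every dko library lay below every control library for 29 large-subunit and 14 small-subunit genes, against 32.8% of all genes tested. As a share of all counts, the large-subunit genes together took 0.136 to 0.149% in the MM controls and 0.0714 to 0.0752% in the dko, and the small-subunit genes 0.0714 to 0.0736% and 0.0394 to 0.0461%. Scaled to effective library size, the summed CPM of the large-subunit genes was 1218 to 1315 in the controls and 823 to 864 in the dko, and that of the small-subunit genes 617 to 659 and 446 to 517. In these bulk samples, fewer cells of a kind and less RNA per cell cannot be told apart. Summed levels of some marker lists also differed between the MM groups. The 10 UB epithelium markers were at 205 to 218 CPM in the controls and 95.5 to 104 in the dko, mostly from Pax2, which nephron progenitors express too, with Wnt9b at 0 in all 6 libraries and Krt8 at 0 in the dko. The 4 early nephron markers were at 356 to 458 and 181 to 214 CPM, with Fgf8 at 0 in MM dko 2 and 3. The 3 neuron markers were at 17.3 to 32.9 and 39.5 to 68.3 CPM, nearly all from Elavl4, with Tubb3 at 0 in the dko. Sums of the 8 nephron progenitor markers (1550 to 1784 and 1061 to 1691 CPM) and of the 6 stroma markers (108 to 168 and 128 to 199 CPM) overlapped. The part of these shifts in the Mrp decrease was not tested. The plot of fold changes by gene sets both tissues side by side.

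**Figure D1:**
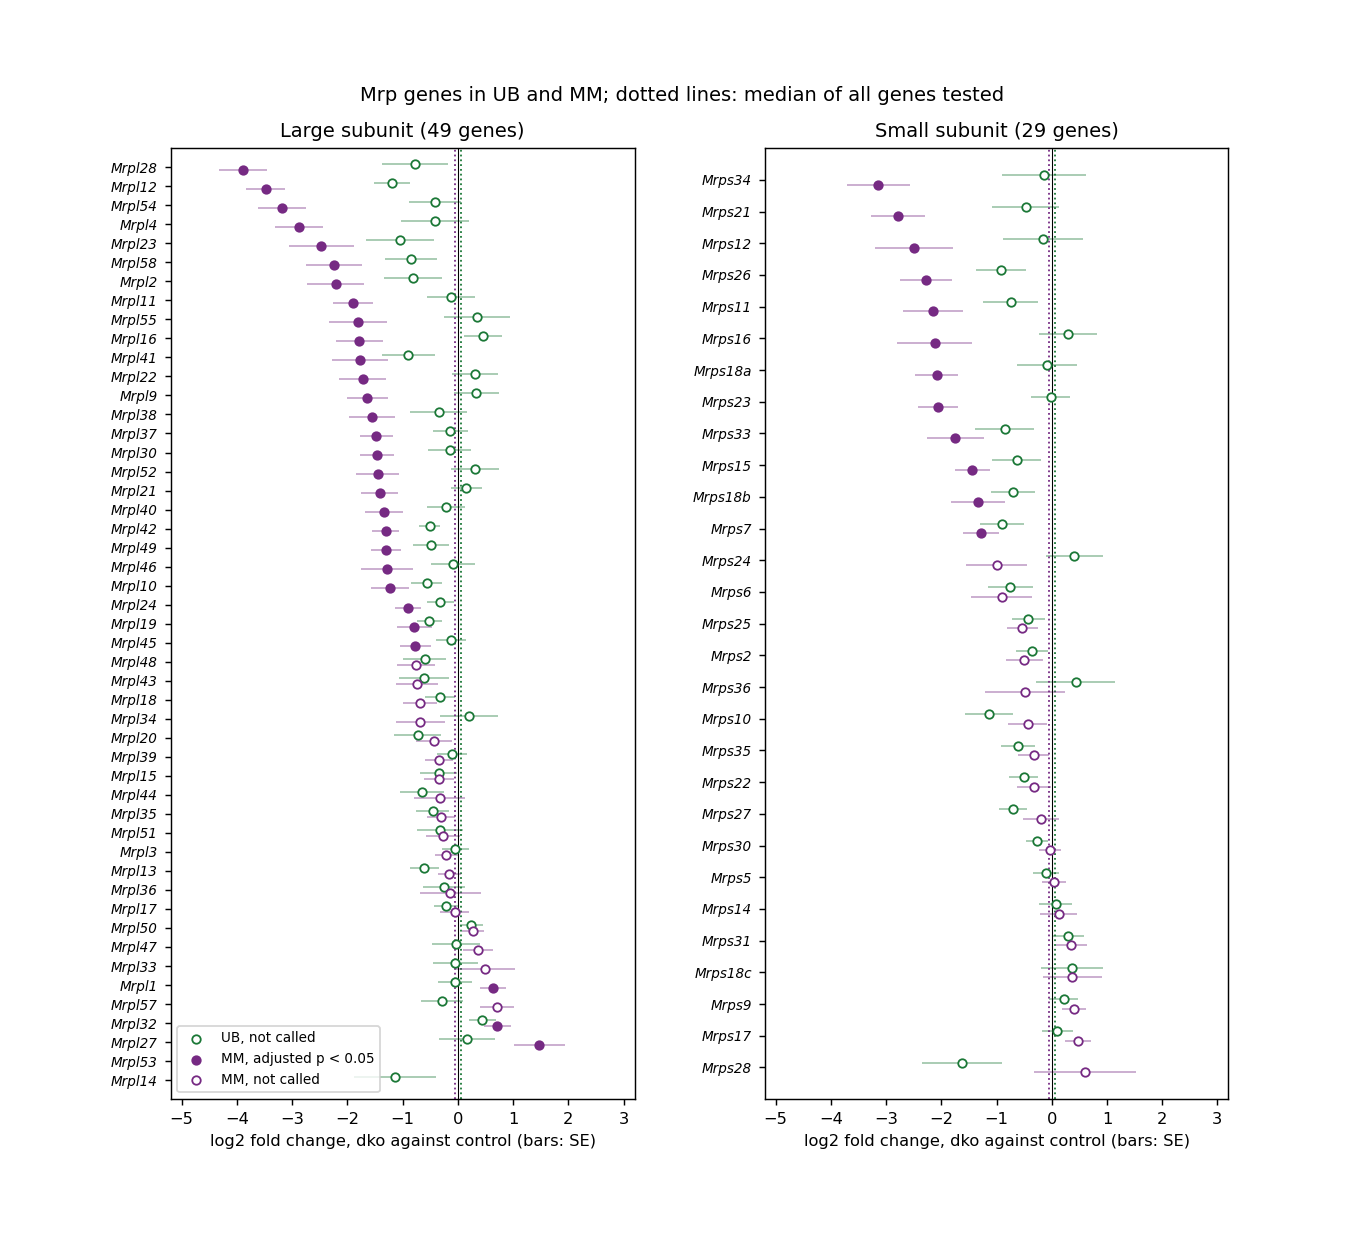
Log2 fold change of every Mrp gene, dko against control, in the UB (green) and the MM (purple), with large-subunit genes at left and small-subunit genes at right, ordered by the MM value. Points are estimates with SE bars, filled where the adjusted p was under 0.05, and dotted lines mark the medians of all genes tested (0.06 in the UB, -0.05 in the MM). The purple points run from -3.89 for Mrpl28 to 1.48 for Mrpl27, and no UB point is filled.

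The largest decrease was that of Mrpl28, a protein of the large subunit. Normalized counts (scaled within each tissue to equal effective library size) were 159, 112 and 127 in the controls and 4.87, 10.6 and 11.9 in the dko. The groups were far apart, at a log2 fold change ± SE of -3.89 ± 0.43 and an adjusted p of 1.12e-05, which is 14.8-fold lower. Mrpl12, which forms the flexible stalk that recruits translation factors to the ribosome, stood at 239, 204 and 261 in the controls and 21.1, 35.3 and 11.9 in the dko. Its log2 fold change ± SE of -3.48 ± 0.35 and an adjusted p of 5.74e-06, was the next largest in the large subunit. Mrpl54, the most GC-rich member at 60.4%, had 98.6, 111 and 80.6 in the controls and 14.6, 7.07 and 8.49 in the dko, with a log2 fold change ± SE of -3.18 ± 0.43 and an adjusted p of 5.22e-05.

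Other proteins of the stalk region were lower as well. Mrpl10, which anchors Mrpl12 to the ribosome, stood at 126, 114 and 110.0 in the controls and 30.8, 67.1 and 56.0 in the dko (log2 fold change ± SE of -1.23 ± 0.34 and an adjusted p of 0.00817). Mrpl11, at the base of the stalk, stood at 109.5, 151 and 129 in the controls and 21.1, 45.9 and 40.7 in the dko (log2 fold change ± SE of -1.90 ± 0.36 and an adjusted p of 0.000639). Both had separate groups, and the decrease of Mrpl11 was the larger. Mrpl58, also known as Ict1, is a peptidyl-tRNA hydrolase that rescues stalled ribosomes and is built into the large subunit. It stood at 86.4, 92.7 and 37.7 in the controls and 11.4, 10.6 and 22.1 in the dko (log2 fold change ± SE of -2.24 ± 0.50 and an adjusted p of 0.00211). Mrpl16, whose bacterial counterpart lies near the peptidyl transferase center, stood at 59.9, 71.7 and 80.6 in the controls and 29.2, 17.7 and 13.6 in the dko (log2 fold change ± SE of -1.78 ± 0.43 and an adjusted p of 0.00328). Its GC content, 43.6%, is low among the members that fell.

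Of the other large-subunit members named for role or level, some were lower and others were not called. Mrpl45, on the membrane side of the ribosome at the exit of the nascent chain, had a log2 fold change ± SE of -0.77 ± 0.28 and an adjusted p of 0.0323. Mrpl42 had a log2 fold change ± SE of -1.31 ± 0.24 and an adjusted p of 0.000487, and Mrpl23 a log2 fold change ± SE of -2.47 ± 0.59 and an adjusted p of 0.00309. Mrpl18 had separate groups and an estimate of -0.69 but missed the threshold (adjusted p = 0.0721), as did Mrpl48 with -0.76 (adjusted p = 0.0785). Mrpl3, which in humans is a cause of cardiomyopathy when mutated, stood at 248.97, 287 and 251 in the controls and 217, 205 and 256 in the dko and was not called (-0.21 ± 0.20, adjusted p = 0.404). Nor was Mrpl44, also a human cardiomyopathy gene, called (-0.33 ± 0.46, adjusted p = 0.57). Mrpl13, Mrpl33, Mrpl34 and Mrpl50 were not called either, with estimates of -0.16, 0.49, -0.68 and 0.27. Mrpl14 was too low to be tested in the MM, at 22.4, 20.97 and 8.32 normalized counts in the controls and 1.62, 0 and 0 in the dko.

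In the small subunit, Mrps34, needed in humans for stability of the small subunit and mutated in Leigh syndrome, had the largest decrease. It stood at 72.8, 50.1 and 45.4 in the controls and 6.49, 10.6 and 3.39 in the dko (log2 fold change ± SE of -3.14 ± 0.57 and an adjusted p of 0.000444). Of its exonic bases, 63.4% are shared with Mapk8ip3 on the opposite strand and 37% with Nme3 on the same strand, so its count depends on how shared reads were assigned. Mrps21 stood at 55.8, 67.6 and 122 in the controls and 9.73, 17.7 and 10.2 in the dko (log2 fold change ± SE of -2.78 ± 0.49 and an adjusted p of 0.000373). Mrps12, the protein of the decoding center, stood at 38.8, 20.97 and 20.5 in the controls and 6.49, 3.53 and 3.39 in the dko (log2 fold change ± SE of -2.50 ± 0.71 and an adjusted p of 0.00914), a difference seen at low counts. Mrps16, a human oxidative phosphorylation deficiency gene, stood at 57.1, 33.1 and 33.3 in the controls and 16.2, 0 and 8.49 in the dko (log2 fold change ± SE of -2.12 ± 0.67 and an adjusted p of 0.0167), 1 dko library having no count. Mrps23 stood at 119.7, 85.9 and 133 in the controls and 21.1, 35.3 and 27.2 in the dko (log2 fold change ± SE of -2.06 ± 0.37 and an adjusted p of 0.000414). In all 5 every dko library lay below every control, as for 32.8% of all genes tested.

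The Mrps18 paralogs did not move alike in their values. Mrps18a, found in the large subunit in human and pig structures despite its name, stood at 107, 118 and 166 in the controls and 16.2, 42.4 and 37.3 in the dko (log2 fold change ± SE of -2.08 ± 0.39 and an adjusted p of 0.000595). Mrps18b stood at 51.7, 33.8 and 45.4 in the controls and 14.6, 14.1 and 22.1 in the dko (log2 fold change ± SE of -1.34 ± 0.48 and an adjusted p of 0.0314), with 30.5% of its exonic bases shared with the antisense gene Gm16279. Mrps18c stood at 19.0, 20.3 and 29.4 in the controls and 24.3, 45.9 and 22.1 in the dko, overlapped between groups and was not called (0.37 ± 0.53, adjusted p = 0.581). The difference between paralogs was not tested. Mrps7, of the small-subunit head, had a log2 fold change ± SE of -1.28 ± 0.33 and an adjusted p of 0.00528, and Mrps15 a log2 fold change ± SE of -1.44 ± 0.32 and an adjusted p of 0.00181. Mrps30, which also lies in the large subunit in those structures, stood at 282, 302 and 402 in the controls and 360.1, 311 and 294 in the dko and was not called (-0.03 ± 0.20, adjusted p = 0.913). Mrps2, Mrps5, Mrps10, Mrps22, Mrps24, Mrps27, Mrps31 and Mrps36 were not called, with estimates from -0.99 (Mrps24) to 0.36 (Mrps31). Neither were Mrps9 and Mrps17, which had the smallest p-values among small-subunit genes above 0, with 0.41 and 0.48, nor Mrps28, which stood at 23.1, 22.3 and 22.4 in the controls and 11.4, 102 and 1.70 in the dko. Its controls lay close together and its dko libraries on both sides of them.

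The 3 members called higher in the MM dko belonged to the large subunit. Mrpl27, whose bacterial counterpart reaches into the peptidyl transferase center, stood at 16.3, 37.2 and 33.3 in the controls and 48.7, 124 and 76.4 in the dko (log2 fold change ± SE of 1.48 ± 0.45 and an adjusted p of 0.0141). Mrpl32 stood at 225, 245 and 246 in the controls and 558, 258 and 343 in the dko (log2 fold change ± SE of 0.71 ± 0.25 and an adjusted p of 0.0253). Mrpl1 stood at 159, 194 and 173 in the controls and 204, 286 and 329 in the dko (log2 fold change ± SE of 0.63 ± 0.23 and an adjusted p of 0.0307). In all 3 every dko library lay above every control, as for 3437 of all 12431 genes tested, and the margins of Mrpl1 and Mrpl32 were small. None of the 3 was called without MM control library 1 and only 1 without MM control library 2. Under per-library offsets for GC content and length, Mrpl27 was higher by 2.14 (adjusted p = 0.00317), while the estimates of Mrpl1 and Mrpl32 turned to -0.46 and -0.29 and were not called.

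**Figure D2:**
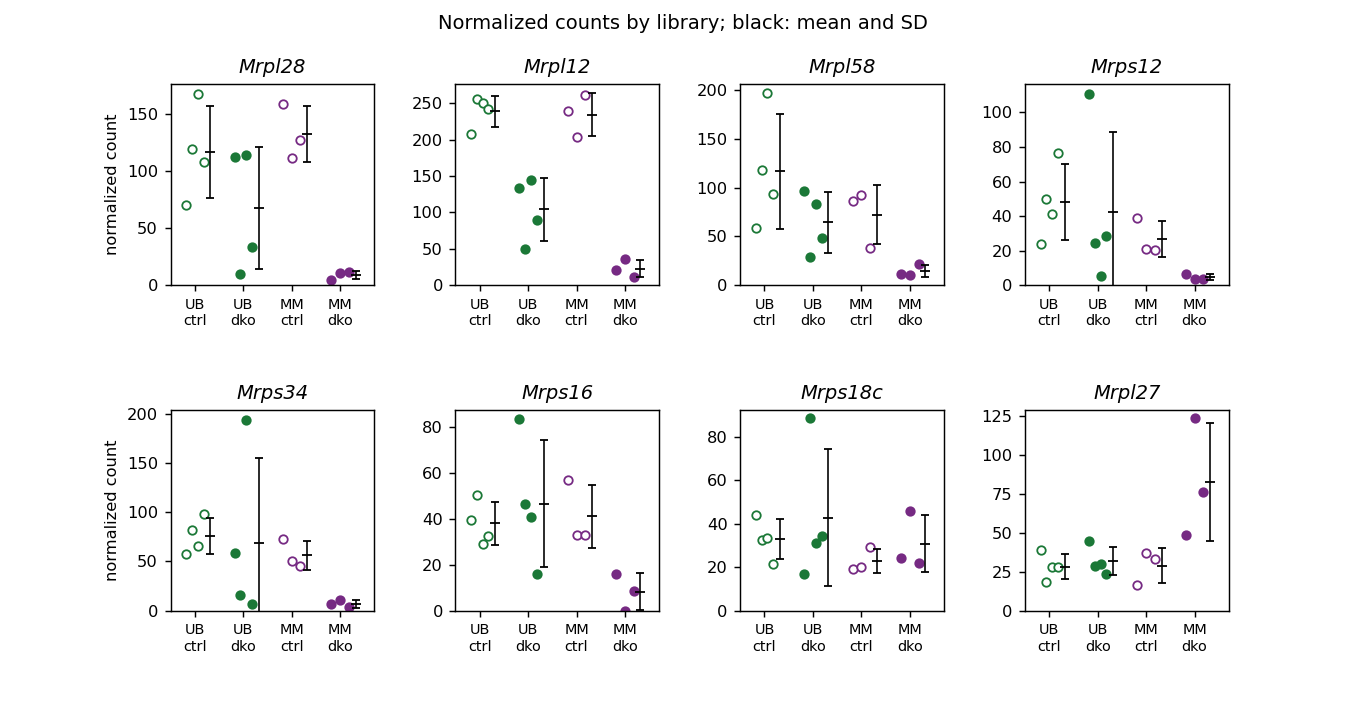
Normalized counts of 8 Mrp genes by library, scaled separately in the UB (green) and the MM (purple), with controls open, dko filled, and black marks for mean and SD (lower ends below 0 are not drawn). The MM dko points of Mrpl28 lie between 4.87 and 11.9 against 112 to 159 in the controls, and among the libraries labelled UB dko, 2 and 4 lie below 1 and 3 for Mrpl28, Mrpl12 and Mrpl58.

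Fold changes of the members followed GC content, as did those of all genes. Across the 76 members tested in the MM, Pearson's r between GC content of the longest transcript and log2 fold change was -0.65 (Spearman's rho -0.64), and across 12421 genes with a GC value it was -0.75 (rho -0.78). These are descriptions across genes, which are not independent replicates and share libraries. GC content itself was near that of other genes, with a median of 49.6% for the members and 48.4% for all genes, while member transcripts were shorter, with a median of 1923 against 3426 bases. In 5 bins of GC content with equal numbers of genes, from low to high, the members had median log2 fold changes of 0.27, -0.31, -0.77, -1.34 and -2.18, against 1.20, 0.49, -0.09, -0.78 and -1.73 for all genes. The members thus lay below the median of all genes in each of the 5. The numbers called lower were 0 of 9, 4 of 15, 10 of 19, 12 of 19 and 12 of 14, beside 0.885%, 4.71%, 18.1%, 44.5% and 71.3% of all genes in those bins.

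With GC and length offsets in the fit, 22 large-subunit and 10 small-subunit genes were lower and 1 was higher (Mrpl27), against 17.4% lower and 7.55% higher among all genes. Medians were -0.72 for the large and -0.76 for the small subunit, and -0.20 for all genes. They were not the same genes throughout: 14 of the 26 large-subunit and 5 of the 12 small-subunit genes lower without offsets were also lower with them. Among those that kept the call were Mrpl28 (-2.12, adjusted p = 0.00225), Mrpl12 (-2.09, adjusted p = 0.000373), Mrpl11 (-1.90, adjusted p = 0.00136), Mrpl58 (-2.03, adjusted p = 0.00914), Mrpl16 (-2.56, adjusted p = 0.000571), Mrps21 (-1.93, adjusted p = 0.00768), Mrps16 (-2.28, adjusted p = 0.0208) and Mrps23 (-1.30, adjusted p = 0.0152). Among those that lost it were Mrpl54 (-1.13, adjusted p = 0.0786), Mrpl10 (-0.45, adjusted p = 0.346), Mrps34 (-1.28, adjusted p = 0.107), Mrps12 (-1.0, adjusted p = 0.336), Mrps7 (-0.08, adjusted p = 0.87) and Mrps15 (-0.06, adjusted p = 0.905). Members of low GC content such as Mrps30 (-1.34, adjusted p = 0.000391), Mrps9 (-1.12, adjusted p = 0.00159) and Mrpl13 (-1.32, adjusted p = 0.000357) were called lower only with the offsets in this pair of fits. Mrpl38, lower without offsets (-1.56), stood at 0.29 with them (adjusted p = 0.631), and Mrps14, at 0.13 without them, was called lower at -1.31 (adjusted p = 0.00577), both named after their values were seen. Of 76 members, 17 changed sign under the offsets. Within the MM, the GC trend was present in all dko libraries and in no control, so there it and the genotype cannot be told apart.

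**Figure D3:**
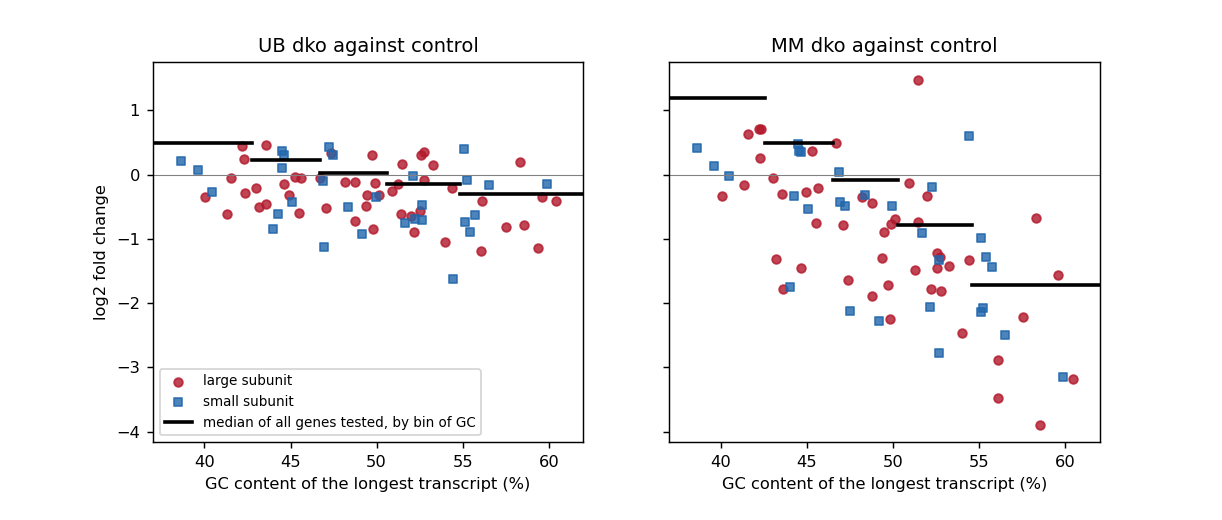
Log2 fold change of the tested Mrp genes against GC content of their longest transcript, in the UB (left, 77 genes) and the MM (right, 76 genes), with large-subunit genes as circles and small-subunit genes as squares. Black bars are the medians of all genes tested in each of 5 bins of GC content, which fall from 1.20 to -1.73 in the MM and from 0.49 to -0.30 in the UB, and most member points lie below the bar of their bin.

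In the UB, no Mrp gene of either subunit was called over all 8 libraries. Of 48 large-subunit and 29 small-subunit genes tested, 0 were lower and 0 higher with edgeR at an adjusted p under 0.05, where 1.24% and 2.70% of 13425 genes were. At an unadjusted p under 0.05, 4 large-subunit and 4 small-subunit genes were lower and none higher, beside 7.91% of all genes lower (and 1740 of 13425 higher). The large-subunit share, 4 of 48, was near that background. DESeq2 called 1 gene lower, Mrpl12, against 3.39% of all genes, while limma voom with sample quality weights called 12 large-subunit (25.0%) and 10 small-subunit genes (34.5%) lower, against 16.5% of all genes. Medians were -0.31 for the large and -0.35 for the small subunit, against 0.06 for all genes, and 38 and 21 of the estimates were below 0. Every library labelled dko lay below every control for 5 large-subunit and 4 small-subunit genes, against 7.06% of all genes tested. As a share of counts, the large-subunit genes took 0.130 to 0.147% in the controls and 0.151, 0.0680, 0.0653 and 0.0909% in the libraries labelled UB dko 1 to 4. The total of library 3 includes its 32.5% on Gm42418, and the order changed with the scaling. At effective library size the summed CPM was 1151 to 1275 in the controls and 1362, 783, 1088 and 910.5 in libraries 1 to 4, so that 3 lay close below the controls. That of the small-subunit genes was 568 to 682 in the controls and 600, 443, 513 and 443 in libraries 1 to 4. Stroma markers, 6 genes, summed to 108 CPM in the library labelled UB dko 1, against 11.6 to 50.9 in the controls, and endothelium markers, 4 genes, to 0.801 CPM in that labelled UB dko 3, against 21.01 to 40.4. The part of either in the Mrp values was not tested.

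Mrpl12 came closest to a call. Normalized counts were 207, 255, 251 and 241 in the controls and 133, 49.4, 144 and 90.2 in the libraries labelled dko, without overlap (log2 fold change ± SE of -1.19 ± 0.33 and an adjusted p of 0.0634). It was called lower under 8 of 20 alternatives, among them GC and length offsets (-0.84, adjusted p = 0.0253), and leaving out the library labelled UB dko 1 or 3. Mrpl42 stood at 349, 362, 339 and 405 in the controls and 244, 232, 274 and 272 in the libraries labelled dko (log2 fold change ± SE of -0.51 ± 0.19 and an adjusted p of 0.148). Mrps27 stood at 179, 187, 170.0 and 207 in the controls and 99.5, 129, 132 and 98.3 in the libraries labelled dko (log2 fold change ± SE of -0.70 ± 0.25 and an adjusted p of 0.143). Neither overlapped between groups, with differences under 2-fold. Mrps10 stood at 149.5, 137, 234 and 184 in the controls and 53.3, 69.7, 36.8 and 161 in the libraries labelled dko (log2 fold change ± SE of -1.13 ± 0.43 and an adjusted p of 0.161), the library labelled dko 4 being within the control range. Mrps28 had the lowest estimate of all members, from 29.3, 39.4, 54.1 and 19.7 in the controls and 15.12, 20.3, 1.36 and 9.12 in the libraries labelled dko (log2 fold change ± SE of -1.62 ± 0.72 and an adjusted p of 0.228), and the group ranges met.

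Mrpl28, lowest in the MM dko, stood at 70.1, 119.8, 168 and 109 in the controls and 113, 10.2, 114 and 33.4 in the libraries labelled dko. The libraries labelled UB dko 1 and 3 were within the control range and 2 and 4 below it, and the estimate over all 4 was -0.78 ± 0.60 (adjusted p = 0.494). Mrps34 stood at 57.5, 82.2, 65.2 and 98.3 in the controls and 58.9, 15.97, 193 and 7.09 in the libraries labelled dko, and Mrps21 at 62.7, 101, 122 and 130.1 in the controls and 85.1, 14.5, 169 and 31.4 in the libraries labelled dko. In both, the libraries labelled dko 2 and 4 were again below all controls, while 1 was within the control range and 3 above it. With the libraries labelled UB dko 2 and 4 alone against all controls, 18 large-subunit genes (37.5%) and 13 small-subunit genes (44.8%) were lower and 0 higher, where 19.9% of all genes were lower and 20.0% higher. Medians were then -0.64 and -0.72, and Mrpl28 (-2.36), Mrps34 (-2.76), Mrps21 (-2.14) and Mrpl12 (-1.75) were among those called. With the libraries labelled UB dko 1 and 3 alone, 0 large-subunit genes and 1 small-subunit gene (Mrps10, -1.99) were lower, against 3.89% of all genes, with medians of -0.11 and -0.20. With GC and length offsets over all 8 libraries, 3 large-subunit genes (Mrpl12, Mrpl13 and Mrpl42) and 1 small-subunit gene (Mrps10) were lower, against 4.91% of all genes. Without the library labelled UB dko 1, Mrpl12, Mrpl38, Mrps7 and Mrps15 were called lower, which is near the 4.09% of all genes lower in that fit, and without that labelled UB dko 3, Mrpl12 alone, against 2.24% (Mrpl38 is named after its value was seen). The low Map2k2, the GC trend and the larger counts of lower Mrp genes came in the same pair of libraries, and their parts cannot be told apart. Lower values were not confined to that pair. Medians over small-subunit genes of log2 CPM minus the control mean were -0.23, -0.61, -0.43 and -0.87 in those labelled UB dko 1 to 4. All lay below the controls (-0.18 to 0.10). For the large subunit they were 0.11, -0.74, -0.20 and -0.41, against -0.11 to 0.11 in the controls.

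**Figure D4:**
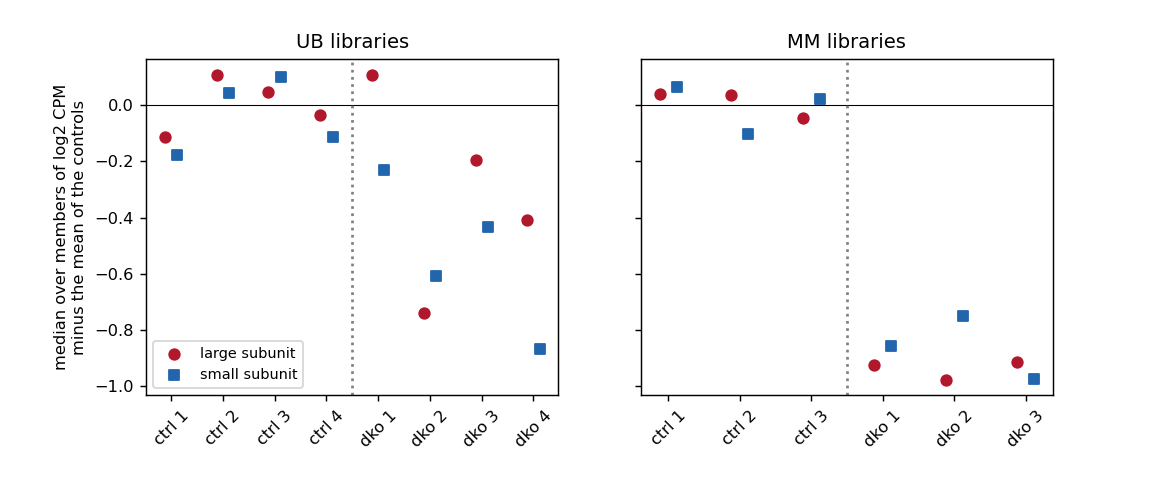
Median over the Mrp genes of each subunit of log2 CPM minus the mean of the controls of the same tissue, by library, for the UB (left) and the MM (right). The MM dko libraries lie between -0.98 and -0.75, below all MM controls, while those labelled UB dko spread from 0.11 to -0.74 for the large and from -0.23 to -0.87 for the small subunit.

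Between tissues, the genotype effect was tested as a difference in a model of all 14 libraries. The MM effect was below the UB effect for 5 large-subunit genes, Mrpl12, Mrpl16, Mrpl21, Mrpl28 and Mrpl54, and for 1 small-subunit gene, Mrps23, at an adjusted p under 0.05, and above it for none. Among 15225 genes, 4.33% were below and 1.81% above. The difference was -2.24 ± 0.52 for Mrpl12 (adjusted p = 0.0255), -2.21 ± 0.57 for Mrpl16 (adjusted p = 0.0331) and -3.08 ± 0.89 for Mrpl28 (adjusted p = 0.0475). Mrpl54 had -2.75 ± 0.72 (adjusted p = 0.0357), Mrpl21 -1.54 ± 0.43 (adjusted p = 0.0431, named after its value was seen) and Mrps23 -2.01 ± 0.54 (adjusted p = 0.0388). Medians of the difference were -0.70 for the large and -0.12 for the small subunit, against -0.13 for all genes. These counts changed with single libraries, as did the share of all genes below. Refitted with 1 library left out, the number of large-subunit genes called was between 0 (without UB control 1 or 2, MM control 1 or 3, or MM dko 1 or 3) and 13 (without the library labelled UB dko 2, where 11.9% of all genes were below), with 10 without that labelled UB dko 4 (7.30% of all genes), 2 without that labelled UB dko 3 and 1 without each of the others. The small-subunit count was 4 and 2 without those labelled UB dko 2 and 4, 1 without MM dko 2 and 0 without any of the others. Of all genes, 0.154 to 1.48% were below in the fits with 0 large-subunit calls and 1.34 to 3.62% in those with 1 or 2. Calls were thus lost over all genes as well. With the libraries labelled UB dko 2 and 4 alone, a choice made after seeing the data, 1 large-subunit gene (Mrpl12) remained, against 2.14% of all genes. Mrpl12 was called in 11 of 17 alternatives, Mrpl16 in 4, Mrpl54 and Mrps23 in 3 each, and Mrpl21 and Mrpl28 in 2 each.

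Other genes of mitochondrial translation were listed with the members for comparison, and their lists are described by counts. Beside them, 27.9% of all genes tested were lower and 25.0% higher in the MM, and 1.24% lower and 2.70% higher in the UB. Among 5 mitoribosomal proteins without an Mrp symbol, Gadd45gip1 (-2.91, adjusted p = 5.36e-05) and Aurkaip1 (-1.50, adjusted p = 0.0188) were lower in the MM dko, Ptcd3 was higher (0.64, adjusted p = 0.00636), and Dap3 (-0.50) and Chchd1 (-0.12) were not called. In the UB none of the 5 was called, at unadjusted p values of 0.103 to 0.683. Of 27 genes for mitoribosome assembly and rRNA modification, 9 (33.3%) were lower and 2 higher in the MM, near the 27.9% lower among all genes, among those lower Rbfa (-2.78), which matures the small subunit, and the GTPase Mtg2 (-2.21), while Mterf3 (1.35) and Gtpbp10 (0.65) were the 2 higher. In the UB, 1 of the 27 (3.7%) was lower, the pseudouridine synthase Trub2 (-1.18 ± 0.29, adjusted p = 0.0452). Of 15 translation factors, 5 (33.3%, also near 27.9%) were lower in the MM, among them the elongation factor Tufm (-3.13) and the membrane insertase Oxa1l (-1.32), 2 were higher, Guf1 (1.46) and Tsfm (1.37), and none was called in the UB. Of 6 genes of mitochondrial transcription, 1 (16.7%, below the 27.9% of all genes) was lower in the MM, the RNA polymerase Polrmt (-2.13, adjusted p = 0.00148). Tfam, Tfb2m, Tefm, Mterf1a and Mterf2 were not called there (estimates from -0.13 to 0.38), and none of the 6 was called in the UB.

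The mitochondrial ribosomal RNAs, the partners of the Mrp proteins in the ribosome, went the other way. Reads on mt-Rnr1 and mt-Rnr2 together made up 1.73 to 2.27% of counts in the MM controls and 11 to 15.9% in the dko, with log2 fold changes of 3.12 and 3.22 (adjusted p = 5.72e-07 and 1.75e-07). In the UB they made up 1.05 to 1.38% in the controls and 1.40, 6.40, 7.02 and 3.23% in the libraries labelled UB dko 1 to 4 (2.59 and 2.40, adjusted p = 0.0355 and 0.0231). Of 12 mitochondrial mRNAs tested in the MM, 9 were higher, among them mt-Nd2 (2.45) and mt-Atp6 (3.45), beside 25.0% of all genes. Of 8 tested in the UB none was called, although all 8 were above 0 at an unadjusted p under 0.05, as were 1740 of all 13425 genes. How far rRNA removal during library preparation bears on the rRNA values was not tested. Among regulators, Gabpa (1.23), Yy1 (0.87) and Myc (0.55) were higher and Pprc1, a coactivator of the PGC-1 family, was lower (-1.4) in the MM, Nrf1 (0.24) and Ppargc1a (1.4) were not called there, and Esrra was too low to be tested. In the UB, Myc was lower (-1.35, adjusted p = 0.0271) and Ppargc1a higher (1.41, adjusted p = 0.0152), and Nrf1 (-0.36), Gabpa (0.47), Yy1 (0.20), Esrra (1.25) and Pprc1 (-1.14) were not called. Cytosolic ribosomal protein genes, whose products make the ribosome outside mitochondria, were lower in 73 and higher in 5 of 87 genes tested in the MM (median -2.01), beside 27.9% and 25.0% of all genes. In the UB 0 of 82 were called (median -0.59), and 19 were lower at an unadjusted p under 0.05, beside 7.91% of all genes.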

How the data were processed

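RNA of GFP-sorted cells was made into NuGen Ovation Solo libraries. The authors deposited raw counts per gene, without normalization, in a table for each tissue, which featureCounts made from STAR alignments to GRCm38 (GENCODE M23) of single-end reads after Trimmomatic. Whether counting used strand is not given in the sources used here. Symbols came from GENCODE M21 by Ensembl identifier. Counts were fitted in edgeR 4.0.16 (R 4.3.3) by the quasi-likelihood test with TMM scaling after filterByExpr (minimum count 10, minimum total 15), within each tissue and, for the tissue by genotype difference, over 14 libraries, with Benjamini-Hochberg adjustment over all genes tested and calls at 0.05. The fits within each tissue were tried on simulated counts that held no GC trend between libraries, so that trial does not bear on such a trend. DESeq2 1.42.0, limma 3.58.1 (voom), other scalings, filters, GC and length offsets (a spline with 4 degrees of freedom), a replicate block and left-out libraries were alternatives. GC content was that of the longest transcript of a gene. Library medians used log2 CPM with a prior count of 2. Libraries are separate embryos, and no 2 agreed within sampling noise. Genes were named for role, for level, for the smallest p-values in each tissue, subunit and direction, for a call against the majority, or for the smallest p-values of the tissue difference. The members and lists were chosen with earlier results of these data known. The middle field of the sample titles, whose meaning is not given in the sources used here, is shared by UB controls 2 to 4, by UB dko 1 and 2, by MM controls 1 and 2 and by MM dko 1 and 2, and by no control and dko of a tissue, so what it marks and the genotype cannot be told apart.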

Additional observations from a re-analysis of the deposited data

Results flagged for a closer look

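In the UB controls, Mrpl44 had 110 normalized counts in library 2 against 50.5 to 59.2 in the others, and Mrps36 had 39.5 in library 3 against 16.7 to 20.1, each a sample far from the rest of its group. Of 94 groups of 4 libraries examined, 2 were picked out in this way, where chance picks about 1 in 20. The genotype effect was called different between the tissues for Mrpl12 (MM minus UB -2.24), Mrpl16 (-2.21), Mrpl54 (-2.75), Mrps23 (-2.01), Mrpl21 (-1.54) and Mrpl28 (-3.08), by a test of the difference itself in the model of all 14 libraries. In that model 4.33% of all genes were called in this direction. Of 17 alternatives, the call was kept in 11 for Mrpl12, 4 for Mrpl16, 3 each for Mrpl54 and Mrps23, and 2 each for Mrpl21 and Mrpl28.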

How the results depend on the processing

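In the UB, the count of large-subunit genes lower, 0 over all libraries, was 1 with DESeq2, with library size only, with no filter, and with the replicate block together with GC and length offsets. In these fits 3.39%, 1.64%, 1.15% and 3.86% of all genes were lower. The large-subunit count was 3 with GC and length offsets (beside 4.91% of all genes), 12 with voom and quality weights (beside 16.5% of all genes), 18 with the libraries labelled UB dko 2 and 4 alone (beside 19.9%), and 0 to 2 with a library left out (beside 0.0506 to 4.09%). The small-subunit count, also 0, was 1 with GC and length offsets, with these and the replicate block, and with the libraries labelled UB dko 1 and 3 alone (beside 3.89% of all genes), 10 with voom, 13 with those labelled 2 and 4 alone, and 0 to 2 with a library left out. The shares of all genes in the other fits are those given for the large subunit. The UB small-subunit median moved from -0.35 to -0.78 with library size only, -0.78 with voom and -0.72 with the libraries labelled 2 and 4 alone, and library size only moved the median of all UB genes from 0.06 to -0.28. With the libraries labelled 2 and 4 alone, 12 of 77 UB members changed sign, and of these Mrpl34 (0.20 to -1.21) and Mrpl55 (0.34 to -1.25) were called. In the MM, the count of genes lower stayed within 1.5 times in all alternatives, at 19 to 35 for the large and 9 to 15 for the small subunit. The share of all MM genes lower ran from 14.9% with no filter to 37.8% with library size only. Of the 26 and 12 members lower, 12 and 3 were called in all 16. The 3 higher became 0 with library size only, 1 with GC and length offsets, 1 with these and the replicate block, 1 when 2-fold was required, and 0 to 2 with a library left out. The MM large-subunit median, -0.89, was -1.01 with DESeq2, -0.83 with RLE scaling, -1.28 with library size only (which moved all genes from -0.05 to -0.44), -1.15 with no filter, -1.04 with a mean count of at least 10, -0.72 with GC and length offsets, -0.72 with these and the replicate block, and -1.12 to -0.84 with a library left out. The small-subunit median, -0.53, was -0.92 with library size only, -0.76 with GC and length offsets, -0.75 with these and the replicate block, -1.09 with voom, and -1.0 to -0.50 with a library left out. In the MM, 17 of 76 members changed sign with the offsets, and as many with the block added. Changes of sign with a call in either fit were those of Mrpl1 and Mrpl32 (-0.46 and -0.29 with GC and length offsets, -0.49 and -0.33 with the replicate block added), Mrpl38 (-1.56 to 0.29, and 0.30 with the block added), Mrpl50 (-0.59 with the offsets), Mrps14 (0.13 to -1.31, and -1.39 with the block added), Mrps9 (-1.12 with the offsets, -1.12 with the block added) and Mrps28 (-1.78 with voom). The tissue difference was called for 5 large-subunit genes and 1 small-subunit gene, beside 4.33% of all genes below. It was called for 2 and 0 with library size only (2.25% of all genes), 4 and 0 with GC and length offsets (4.33%), 1 and 0 with the libraries labelled UB dko 2 and 4 alone (2.14%), and 0 to 13 and 0 to 4 with a library left out (0.154 to 11.9%). Replicate numbers did not pair the samples (correlations of same-numbered deviations -0.28 to 0.12), and with the replicate block alone 0 UB and 36 MM genes, 25 of the large and 11 of the small subunit, were lower. In those fits 0.0968% of all UB genes and 26.1% of all MM genes were lower, so few UB genes of any kind were called. The causes of these changes were not tested. MM dko library 2, with 1443582 counts, limits the precision of members at low counts.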
